A study of Mus musculus with 222 samples.

Results

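Npy separated mammary tumors of 1 genetic background into a high and a low set. The tumors came from females of the inbred FVB/N strain that carried the MMTV-ErbB2 transgene, in which the promoter of the mouse mammary tumor virus drives the ErbB2 proto-oncogene. They were chosen by their value at the single Npy probe set among the 25 FVB tumors whose name starts with P, out of 214 tumors and 222 arrays in all. Tumors at 10 or more on the log2 scale were called Npy-high, and tumors under 8 were called Npy-low. The rule gave 17 Npy-high tumors of 16 mice and 7 Npy-low tumors of 7 mice, and left 1 tumor between the cuts. The F1BX tumors, which carry the same transgene and come from F1 mice (C57BL/6 x FVB/N) backcrossed to FVB/N, were read with the same cuts but were not used to choose the FVB tumors. They held 25 Npy-high tumors of 21 mice, 109 Npy-low tumors of 87 mice and 24 tumors between the cuts. The 28 F1 tumors and 3 MMTV-ErbB2 FVB mammary glands were only set beside these. The mice's ages and the F1BX genotypes at Npy were not used here. All of the mice in the tumor groups carry the transgene, and the viral promoter is active chiefly in mammary epithelium but not in it alone.

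Npy encodes neuropeptide Y, a peptide transmitter of brain and sympathetic neurons. Its precursor is cut by prohormone convertases and trimmed by carboxypeptidase E, the peptide is shortened by dipeptidyl peptidase 4, and it acts through G protein-coupled Y receptors. The mammary luminal cell makes milk late in pregnancy and in lactation, when prolactin acts through STAT5 to switch on the caseins, the milk fat globule proteins and the enzymes of fatty acid synthesis. ErbB2-driven tumors of mice are largely luminal and keep parts of this secretory program to differing degrees.

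Npy lay between 10.00 and 13.06 in the Npy-high tumors, with a median of 11.70, against 6.73 to 7.02 in the Npy-low tumors, with a median of 6.91. These values made the groups and are a description only. Just inside the upper cut stood P09T1 at 10.00, and just outside it P08T1 at 9.78. On the low side the nearest tumor to its cut was P23T1 at 7.02, so no FVB tumor lay between 7.02 and 9.78. Mice P10, P16 and P21 each held a tumor of both kinds. In P10, Npy was 12.46 in the Npy-high tumor and 6.90 in the Npy-low tumor. In P16 it was 11.82 in the Npy-high tumor and 6.92 in the Npy-low tumor. In P21 it was 11.46 in the Npy-high tumor and 6.91 in the Npy-low tumor. Both tumors of P15 were Npy-high, at 11.37 and 12.37. The tumors of 1 mouse share their germline, so Npy differed between tumors of the same genotype in these 3 animals. The FVB glands stood at 8.46, 8.05 and 9.06, on arrays with a narrower spread of values than the FVB tumors' arrays, and the F1 tumors ran from 6.58 to 9.43.

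**Figure D1:**
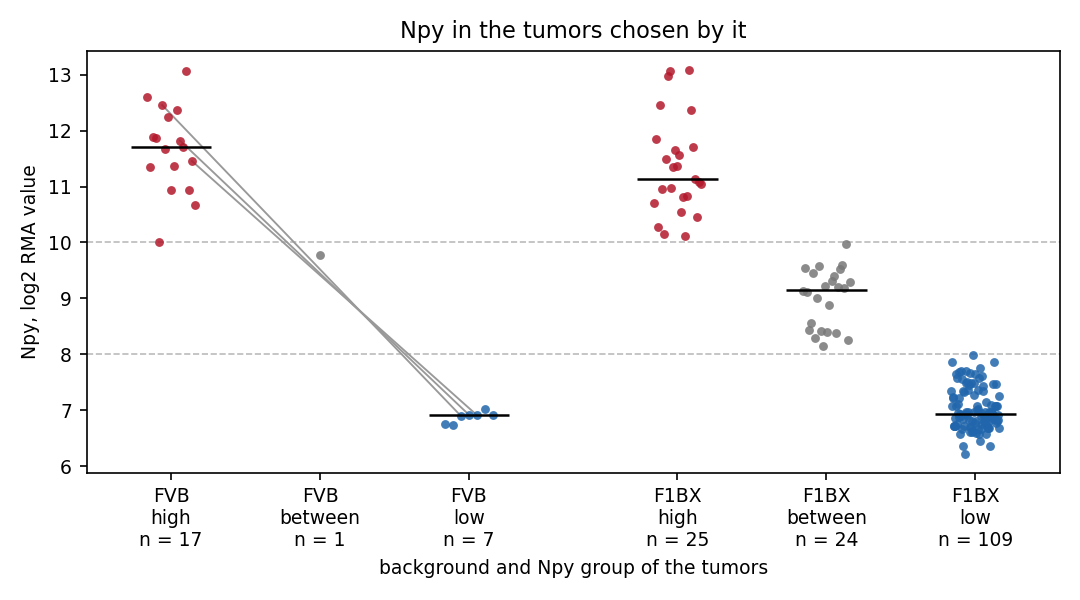
Npy (log2 RMA value, y axis) in each FVB and F1BX tumor, by background and Npy group (x axis). Points are tumors, black bars are group medians, dashed lines are the cuts at 8 and 10, and grey lines join the Npy-high and the Npy-low tumor of mice P10, P16 and P21. The 7 Npy-low FVB tumors lie between 6.73 and 7.02, and the F1BX tumors also fill the space between the cuts.

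The 24 FVB arrays compared were alike in overall distribution. The interquartile range of the log2 values was 3.04 to 3.30 in the Npy-high tumors and 3.12 to 3.23 in the Npy-low tumors. The medians were 7.12 to 7.22 in the Npy-high tumors and 7.13 to 7.21 in the Npy-low tumors. Krt8 and Krt18, the keratins of luminal epithelium, were at 12.26 or more in each of these tumors, and neither passed the test (adjusted p of 0.354 and 0.611). The number of arrays limits the precision, and the files used here give no detection calls. In bulk tumor pieces, fewer cells of a type and less RNA per cell cannot be told apart, and this holds for every difference given here.

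A large part of the transcriptome differed between the 2 kinds of FVB tumor. With limma, and with Benjamini-Hochberg adjustment over all 35555 other probe sets, 5690 differed at an adjusted p under 0.05. Of these, 2831 (7.96%) were higher in Npy-high tumors and 2859 (8.04%) were lower. The median difference over all probe sets was -0.04. Among 17471 genes taken with 1 probe set each, 1787 (10.2%) were higher and 1838 (10.5%) were lower. In 313 probe sets (0.880%) the 17 Npy-high and 7 Npy-low tumors did not overlap at all. With mouse as a fixed term, which leaves only 3 mice and 6 tumors, 12 probe sets were called. At a fold of at least 2 and an FDR of at most 0.005, 339 were called. All differences are Npy-high minus Npy-low on the log2 scale.

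Milk genes led the genes that rose. Csn1s1, the alpha-S1 casein, lay at 11.87, 13.05 and 13.29 in Npy-high tumors (lowest, median, highest), against 7.32, 8.40 and 10.61 in Npy-low tumors. Every Npy-high tumor was above every Npy-low tumor, and the difference was 4.11 (SE 0.31, 17.2-fold, adjusted p 5.22e-09). Lao1, an L-amino acid oxidase secreted in mouse milk, lay at 9.07, 10.66 and 11.80 in Npy-high tumors, against 6.29, 6.70 and 7.59 in Npy-low tumors. Its groups did not overlap either, with a difference of 3.74 (SE 0.31, adjusted p 1.19e-08). Btn1a1, or butyrophilin, the main membrane protein of the milk fat globule, lay at 11.21, 12.38 and 12.95 in Npy-high tumors, against 7.02, 9.39 and 10.67 in Npy-low tumors. The Npy-low tumors spread over more than 3 log2 units here, yet all stayed under the Npy-high ones, and the difference was 3.17 (SE 0.31, adjusted p 1.58e-07). Csn1s2b, another casein, was at 6.95, 9.08 and 11.42 in Npy-high tumors, against 5.57, 6.02 and 7.65 in Npy-low tumors, where the groups overlapped by 1 tumor on the Npy-high side.

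The promoters of Npy and of 2 casein genes are shown as the stretch of 250 bases that ends at the gene's start, since Npy defined the groups and Csn1s1 and Csn2 are classical STAT5 targets. They were taken from RefSeq (GRCm38.p6). Capitals mark the letters TTCNNNGAA, the core to which STAT factors bind. These letters read the same on both strands.
Npy, chr6:49822460-49822709, plus strand: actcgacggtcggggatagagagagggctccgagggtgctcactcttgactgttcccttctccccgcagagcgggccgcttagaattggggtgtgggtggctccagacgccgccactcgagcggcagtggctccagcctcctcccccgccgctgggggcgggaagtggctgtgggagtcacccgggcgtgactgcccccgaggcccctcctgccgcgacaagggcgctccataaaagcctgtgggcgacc
Csn1s1, chr5:87665958-87666207, plus strand: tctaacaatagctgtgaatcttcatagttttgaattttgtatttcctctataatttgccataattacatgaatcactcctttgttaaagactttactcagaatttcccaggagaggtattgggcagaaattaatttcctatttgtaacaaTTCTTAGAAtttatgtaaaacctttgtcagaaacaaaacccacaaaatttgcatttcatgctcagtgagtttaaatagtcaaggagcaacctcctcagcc
Csn2, chr5:87699426-87699675, minus strand: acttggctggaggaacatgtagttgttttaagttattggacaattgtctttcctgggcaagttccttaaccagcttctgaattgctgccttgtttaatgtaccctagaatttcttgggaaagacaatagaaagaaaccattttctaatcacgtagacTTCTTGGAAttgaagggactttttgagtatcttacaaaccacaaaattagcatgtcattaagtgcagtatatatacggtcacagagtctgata
The letters stood in the Csn1s1 stretch, as TTCTTAGAA, and in the Csn2 stretch, as TTCTTGGAA, and not in that of Npy. They occurred in 2306 of all 32851 promoter stretches of this length (7.02%), and in 2197 of the 27025 genes with a promoter entry (8.13%). Among the milk genes measured, 3 of 12 with a promoter entry held them (25.0%). Of the 12 genes with the largest rise, 1 of 8 with an entry held them, and of the 12 with the largest fall, 0 of 10. TGACGTCA, the cyclic AMP response element, was in none of the 3 stretches.

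Over the whole milk list, 12 of the 19 genes measured rose in Npy-high tumors and 0 fell, with a median difference of 1.60. Over all 17471 genes 10.2% rose and 10.5% fell, the shares to set beside each FVB list count. Csn2, the beta casein, was at 11.89, 13.37 and 13.76 in Npy-high tumors, against 9.10, 11.64 and 13.07 in Npy-low tumors, a difference that passed (adjusted p 0.000187). Wap, the whey acidic protein, was at 7.42, 8.43 and 11.31 in Npy-high tumors, against 6.65, 6.85 and 6.96 in Npy-low tumors, with no overlap and a difference of 1.83 (adjusted p 0.000491). Plin2, which coats the lipid droplets that become milk fat, was at 12.25, 12.88 and 13.22 in Npy-high tumors, against 11.10, 11.55 and 11.93 in Npy-low tumors, also without overlap. Csn1s2a, Xdh, Mfge8, Muc15 and Slc34a2 rose by 2.44, 0.41, 1.56, 1.60 and 1.69. The other 7 did not pass. Csn3, the kappa casein, had a difference of 0.14 (adjusted p 0.107). Glycam1 had a difference of 1.63 (adjusted p 0.0992), with values of 5.81, 6.51 and 11.21 in Npy-high tumors, against 5.53, 5.91 and 6.18 in Npy-low tumors, so that a few Npy-high tumors carried it. Ltf, the iron-binding lactoferrin, had a difference of 1.17 (adjusted p 0.0892).

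Of the 13 prolactin and STAT5 genes measured, 6 rose and 0 fell, with a median of 0.30. Stat5a, the main STAT of the mammary gland, was at 9.87, 10.77 and 11.19 in Npy-high tumors, against 9.27, 9.66 and 9.95 in Npy-low tumors, with a difference of 1.01 (SE 0.15). Stat5b rose by 0.65, Gata3, a luminal transcription factor, by 0.68, Nfib by 0.63, the feedback inhibitor Socs2 by 0.48, and the fatty acid receptor Cd36 by 1.58. Elf5, which directs the secretory lineage, had a difference of 0.22 (adjusted p 0.0566). Esr1, the estrogen receptor, rose by 0.83 as the only one of 8 hormone-sensing genes, and Kit rose by 0.56 as the only one of 11 luminal progenitor genes. With 10.2% of all genes higher, 1 gene called in lists of 8 and 11 is near that share.

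The fatty acid synthesis genes moved too. Of 13, 7 rose and 1 fell, with a median of 0.52. Thrsp, a regulator of lipogenesis known as Spot14, was at 9.21, 9.87 and 11.44 in Npy-high tumors, against 6.61, 7.52 and 7.85 in Npy-low tumors, with no overlap and a difference of 2.64 (SE 0.22, adjusted p 2.04e-08). Srebf1, the sterol-regulated transcription factor of the pathway, rose by 0.78, Acly by 0.64, Fasn by 0.73, Acaca by 0.62 and the desaturases Fads1 and Scd1 by 1.27 and 0.52. Scd2, a desaturase closely related to Scd1, fell by 0.49.

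Outside these lists, the genes with the largest rise had mixed roles. Rdh12, a retinol dehydrogenase, lay at 9.17, 10.72 and 11.37 in Npy-high tumors, against 5.85, 6.72 and 8.77 in Npy-low tumors, with a difference of 3.61 (SE 0.30, 12.2-fold, adjusted p 1.19e-08). Its groups did not overlap, nor did those of Gldc, the glycine decarboxylase (3.07), Spink5, a serine protease inhibitor of skin (3.08), and Prkg1, the cyclic GMP-dependent kinase (2.70). Prkg1 was at 7.40, 9.34 and 9.96 in Npy-high tumors, against 6.31, 6.49 and 6.62 in Npy-low tumors. Slc6a2, the noradrenaline transporter of sympathetic neurons, was at 6.49, 9.89 and 11.34 in Npy-high tumors, against 6.11, 6.54 and 7.21 in Npy-low tumors, a difference of 2.95 (SE 0.46). Vsnl1, a calcium sensor of neurons, rose by 3.28 and Dkkl1, known from the sperm acrosome, by 3.20. For Vsnl1, Slc6a2 and Dkkl1, P09T1, the Npy-high tumor at the cut, was the lowest of the Npy-high tumors and the only one not above all Npy-low tumors, at 6.16, 6.49 and 7.88.

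The genes with the largest fall were of mixed function. Cpe, carboxypeptidase E, lay at 6.98, 7.78 and 11.78 in Npy-high tumors, against 11.11, 12.28 and 12.68 in Npy-low tumors, a difference of -3.75 (SE 0.49, 13.4-fold, adjusted p 5.70e-06). P09T1 alone, at 11.78, reached into the Npy-low range. Fetub, a protease inhibitor of blood plasma made in liver, lay at 6.30, 8.30 and 11.31 in Npy-high tumors, against 9.93, 12.19 and 12.85 in Npy-low tumors, with 15 of 17 Npy-high tumors below all Npy-low tumors and a difference of -3.37 (SE 0.51). Gpx2, a glutathione peroxidase of epithelia, was at 6.51, 6.97 and 8.70 in Npy-high tumors, against 8.95, 10.39 and 12.19 in Npy-low tumors, with no overlap and a difference of -3.21 (SE 0.34). Unc79, a subunit of the sodium leak channel complex, was at 5.40, 5.90 and 7.90 in Npy-high tumors, against 8.46, 8.77 and 9.72 in Npy-low tumors, again without overlap (-2.88). Pglyrp1, which binds bacterial peptidoglycan, fell by 2.59 and Ppp2r2b, a phosphatase subunit, by 2.50, both without overlap. The postsynaptic scaffold gene Dlgap1 fell by 3.04, the heparan sulfate sulfotransferase gene Hs3st3a1 by 2.96, Aif1l and Myo7a, whose proteins bind actin, by 2.35 each, and the sialyltransferase gene St8sia6 by 2.25. Cnmd, a gene of cartilage, had a difference of -2.93. Of the 12 genes with the largest rise 8 did not overlap, and of the 12 with the largest fall 4, beside 313 of all 35555 probe sets (0.880%). These genes were chosen for their differences in the same tumors, so the counts are a description only.

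Neuronal and neuroendocrine genes were read as lists, beside 10.2% of all genes that rose and 10.5% that fell. Of 19 neuroendocrine and granule genes 0 rose and 1 fell, which was Eno2, a glycolytic enolase abundant in neurons (-1.47). Chga, the chromogranin of secretory granules, was at 6.52, 6.81 and 7.11 in Npy-high tumors, against 6.67, 6.89 and 6.93 in Npy-low tumors. Of 12 neuronal genes 1 rose, Map2, by 0.43, and the sympathetic neuron genes Th and Dbh had differences of -0.07 (adjusted p 0.572) and -0.08 (adjusted p 0.484). Of 5 Schwann cell genes, Cnp rose by 1.03 and S100b fell by 0.68.

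Of the genes of the Npy system itself, the processing genes Cpe and Dpp4 showed the largest differences. The shares over all genes were 10.2% higher and 10.5% lower. Among 7 Y receptor and related peptide genes, 1 fell, Npy2r, by 0.30 (adjusted p 0.000524), at 4.70, 4.87 and 5.09 in Npy-high tumors, against 5.09, 5.16 and 5.40 in Npy-low tumors, values near the low end of the array. Npy1r, the Y1 receptor of vascular smooth muscle, had a difference of 0.34 (SE 0.18, adjusted p 0.215), with a highest value of 7.09 in Npy-high tumors, against 5.74 in Npy-low tumors. Npy5r did not pass (adjusted p 0.990). Of 9 peptide processing genes, Pcsk1, a prohormone convertase, rose by 0.48, and Dpp4, the dipeptidyl peptidase, rose by 2.22. Without the 7 Npy-high tumors with high Adipoq described below, Pcsk1 differed by 0.40 and lost the call (limma, adjusted p 0.128). Dpp4 lay at 7.85, 9.41 and 10.18 in Npy-high tumors, against 6.30, 6.88 and 7.88 in Npy-low tumors. Cpe was the 1 gene of this list that fell, and the list median was -0.02. The rest of the list, such as Pam (-0.09, limma, adjusted p 0.727), did not pass.

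Erbb2 did not pass the test. It was at 12.33, 12.48 and 12.62 in Npy-high tumors, against 11.90, 12.44 and 12.81 in Npy-low tumors, a difference of 0.06 (SE 0.08, adjusted p 0.691). Of 15 ERBB receptor and ligand genes, 3 were higher and 3 were lower, beside 10.2% and 10.5% of all named genes. Erbb4, the receptor tied to lactation, lay at 8.33, 9.94 and 10.30 in Npy-high tumors, against 6.14, 6.64 and 10.09 in Npy-low tumors, a difference of 2.53 (SE 0.34). The Npy-low value of 10.09 came from P21T1, and the other Npy-low tumors ended at 7.69. Egf, which the lactating gland makes, rose by 2.01 and Egfr by 0.40. The EGF family ligands Hbegf, Nrg2 and Tgfa fell by 1.01, 0.40 and 0.37. Of 16 genes read as ERK pathway output, 4 fell and 0 rose, Dusp4 by 0.71, Ier3 by 0.58, Etv4 by 0.53 and Spred2 by 0.30, with a list median of -0.09. Of 13 immediate early genes 4 fell, with Egr1 at -0.68, and Jun rose by 0.70.

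Of 19 proliferation genes 9 fell and 0 rose, with a median of -0.31, beside 10.5% of all genes that fell. Bub1b, a spindle checkpoint kinase, was at 8.88, 9.52 and 9.76 in Npy-high tumors, against 9.78, 9.99 and 10.14 in Npy-low tumors, with no overlap and a difference of -0.62 (SE 0.12). Rrm2, a subunit of ribonucleotide reductase, fell by 0.75, Kif20a by 0.65, Bub1 by 0.63 and Cdk1 by 0.47, while Mki67 had a difference of -0.07 (adjusted p 0.791). Of 14 hypoxia and glycolysis genes 6 fell and 0 rose, with a median of -0.32: Bnip3 by 0.99, Pdk1 by 0.75, Ankrd37 by 0.68, Vegfa by 0.57, Hk2 by 0.47 and Pgk1 by 0.42. Without the 7 Npy-high tumors with high Adipoq described next, 7 of the 19 proliferation genes and 2 of the 14 hypoxia and glycolysis genes fell, with medians of -0.28 and -0.25. Of all 17471 genes, 1332 fell in that comparison. The call of Vegfa was also lost in 18 of the 24 fits that left out 1 tumor, and that of the proliferation gene Cenpe in 16.

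**Figure D2:**
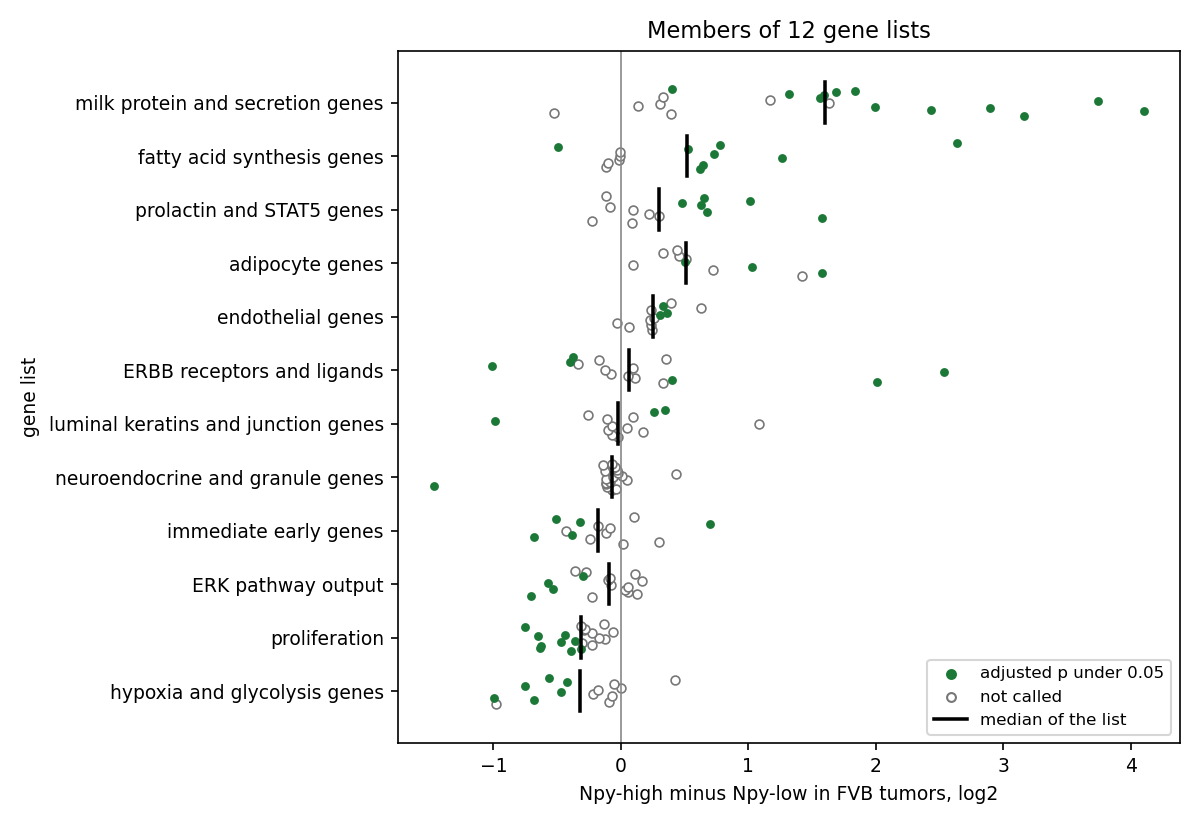
Npy-high minus Npy-low difference in FVB tumors (log2, x axis) of each measured member of 12 gene lists (y axis). Filled points passed the test, open points did not, and black bars are list medians, from 1.60 for the milk genes to -0.32 for the hypoxia and glycolysis genes.

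Fat and muscle genes were high in some Npy-high tumors. In 7 of the 17 Npy-high tumors Adipoq, the adipocyte hormone adiponectin, stood above 7, up to 9.24, against 4.81 to 5.87 in Npy-low tumors, and these 7 tumors include P10T3 and P21T4 of the pairs, where the muscle actin Acta1 was at 11.89 and 12.20. The mean over the 10 adipocyte genes measured ran from 7.25 to 8.89 in Npy-high tumors and from 6.81 to 7.41 in Npy-low tumors, and 3 of the 10 rose. The mean over 11 skeletal muscle genes ran from 6.32 to 10.10 in Npy-high tumors and from 6.50 to 7.79 in Npy-low tumors, with 0 called. Acta1 had a difference of 0.57 that did not pass, and of -0.10 without the 7 tumors. Without the 7 tumors, in a comparison added after the values were seen, 4642 probe sets were called. All of the 24 genes with the largest differences kept the call, and 12 of 19 milk genes and 7 of 13 fatty acid genes rose, while 17 other list genes lost it, among them Fabp4 and Lipe of the adipocyte list, Pecam1 of the endothelial list, Xdh of the milk list, and Vegfa, Hk2, Bnip3 and Ankrd37 of the hypoxia and glycolysis list. This comparison held 10 Npy-high tumors in place of 17, and of all 17471 genes 1547 rose and 1332 fell in it. The difference of Fabp4 was 0.42 without the 7 tumors, against 1.03 with them, and that of Lipe was 0.32, against 0.51. Without the 7 tumors the differences were 0.29 for Pecam1, 0.38 for Xdh, -0.41 for Vegfa, -0.42 for Hk2, -0.81 for Bnip3 and -0.58 for Ankrd37.

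Markers of other cell types were read in the same way, beside 10.2% of all genes that rose and 10.5% that fell. The endothelial genes Pecam1, Kdr and Tie1 rose by 0.36, 0.30 and 0.33, as 3 of 12, and Csf1r rose by 0.48 as 1 of 11 macrophage genes. The mean over the macrophage list ran from 8.54 to 9.94 in Npy-high tumors and from 8.20 to 9.27 in Npy-low tumors. With limma, 0 of the T cell, B and plasma cell, neutrophil, mast cell, fibroblast, skeletal muscle, MHC class II, interferon and heat shock genes passed, 86 genes in all, of which 13 (15.1%) had an unadjusted p under 0.05, against 10256 of all 35555 probe sets (28.8%). Of 14 basal and myoepithelial genes Vim fell, by 0.72. Of 13 luminal keratin and junction genes Tjp1 and Spint2 rose by 0.34 and 0.26, and Krt7 fell by 0.99. The part of these cell types in the differences above was not tested beyond the comparison without the 7 tumors.

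The 3 mice with tumors of both kinds gave the comparison within 1 germline. In each pair the Npy-low tumor was T1 by name (P10T1, P16T1, P21T1) and the Npy-high tumor had a higher number (P10T3, P16T2, P21T4). All Npy-low tumors but P24T2 were named T1, as were P01T1, P09T1, P15T1, P17T1 and P19T1 of the Npy-high tumors. Npy group and tumor number cannot be told apart in the pairs, and the part of tumor number was not tested. In all 3 pairs the 12 genes with the largest rise were higher in the Npy-high tumor and the 12 with the largest fall were lower. The 24 genes were chosen in a fit that held these 6 tumors, so this shared direction is a description only. For genes whose groups did not overlap, the direction in each pair was fixed by that. Csn1s1 was 12.97 in the Npy-high and 9.37 in the Npy-low tumor of P10. It was 12.84 in the Npy-high and 9.54 in the Npy-low tumor of P16, and 13.29 in the Npy-high and 8.16 in the Npy-low tumor of P21. Cpe was 7.16 in the Npy-high and 12.68 in the Npy-low tumor of P10. It was 7.65 in the Npy-high and 12.28 in the Npy-low tumor of P16, and 8.21 in the Npy-high and 11.55 in the Npy-low tumor of P21. Of the 24, 4 (Rdh12, Gldc, Prkg1 and Unc79) passed with mouse as a fixed term in these 6 tumors. Fetub was less even, as its value in the Npy-high tumor of P16 was 11.31, against 12.47 in the Npy-low tumor. Erbb4 differed by 4.09 in P10 and 3.56 in P16, but by 0.11 in P21. Erbb2 differed by 0.26, 0.58 and -0.42, with no common direction.

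These pairs could also be read as tumors outside the comparison. Without the 3 mice, 14 Npy-high and 4 Npy-low tumors were left, and 2950 probe sets were called, 1791 higher and 1159 lower. Of the 1791, 1307 (73.0%) were higher in the Npy-high tumor of all 3 pairs, against 5127 of all probe sets (14.4%), and the shared probe sets were 25.49% of those 5127. Of the 1159, 780 (67.3%) were lower in all 3 pairs, against 7622 of all probe sets (21.4%), and were 10.23% of those 7622. The opposite direction in all 3 pairs was seen in 9 of the 1791 and 3 of the 1159. P10T3 and P21T4 are the tumors with the highest Acta1, so 2 of the 3 pairs also differ in muscle and fat genes.

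P08T1 and 063T1 had not entered the comparison. Over the 24 genes with the largest differences, P08T1 was nearer to the Npy-high mean in 14 and to the Npy-low mean in the other genes. It had a Csn1s1 of 12.79 and a Rdh12 of 10.53, inside the Npy-high range. Its Vsnl1 of 7.02 and its Cnmd of 9.92 lay inside the Npy-low range, which P09T1 alone of the Npy-high tumors entered for these genes. 063T1, an FVB tumor with another kind of name and an Npy of 6.91, was nearer to the Npy-high mean in 3 of 24. The 24 genes and both means came from the tumors that were compared, so the placement of those tumors is a description only. Among them, Npy-high tumors were nearer to their own mean in 13 to 24 genes (median 23). The lowest, 13, was P09T1, the next was P19T1 with 19, and Npy-low tumors were nearer to the Npy-high mean in 0 to 3. The 28 F1 tumors, some of them on arrays with a narrower spread, ranged from 0 to 23, with a median of 4.5.

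**Figure D3:**
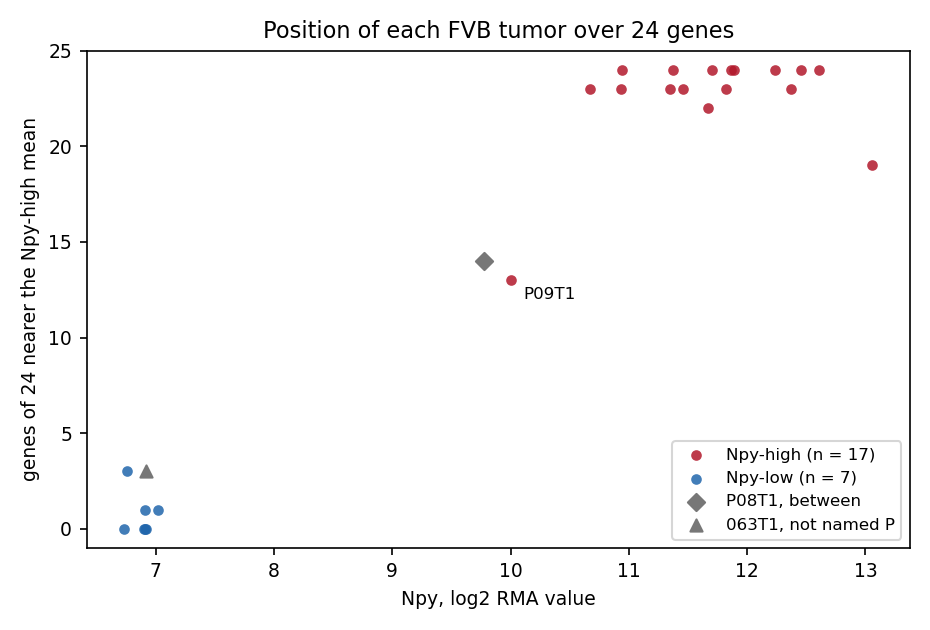
Number of the 24 genes in which a tumor is nearer the Npy-high mean than the Npy-low mean (y axis) by its Npy (log2 RMA value, x axis), for each FVB tumor. The genes and means come from the 24 tumors drawn as circles, and P08T1 (14 of 24) and 063T1 (3 of 24) did not enter them. P09T1, at the cut, has 13 of 24.

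The F1BX tumors gave the same contrast in mice the FVB rule had not used, with the array set as a term in the fit. There, 4802 probe sets (13.5%) were higher in Npy-high tumors and 5707 (16.1%) were lower. Of the 2831 probe sets that rose in FVB tumors, 2173 (76.8%) rose in F1BX tumors, which is 45.25% of the F1BX list, and 2 fell. Of the 2859 that fell in FVB tumors, 1829 (64.0%) fell in F1BX tumors, which is 32.05% of that list, and 14 rose. All of the 24 genes with the largest FVB differences were called in the same direction in F1BX tumors. Rdh12 differed by 3.88 there (SE 0.23), Btn1a1 by 3.28, Slc6a2 by 3.25 and Fetub by -3.26, close to their FVB differences of 3.61, 3.17, 2.95 and -3.37. Csn1s1 differed by 2.02 (SE 0.45), with medians of 12.60 in Npy-high and 11.06 in Npy-low F1BX tumors, while the Npy-low median in FVB was 8.40. The F1BX groups overlapped for Csn1s1, as Npy-low tumors reached 13.37 and Npy-high tumors went down to 10.52. Npy-low F1BX tumors also reached 12.92 for Btn1a1, 12.21 for Lao1 and 10.78 for Rdh12. Their medians were 8.87, 6.78 and 6.49, against Npy-high F1BX medians of 12.44, 9.96 and 11.04. The caseins Csn1s2b (1.42) and Csn2 (1.82) rose as well, and the milk list had 14 of 19 higher and 1 lower. Of 19 proliferation genes, 18 fell, with a median of -0.43, and of 14 hypoxia and glycolysis genes 8 fell. Erbb2 was at 8.3 in 092T1, 9.3 in 168T1 and 10.3 in 076T1, all Npy-low F1BX tumors that stayed in this fit. In the FVB tumors compared it was at 11.90 or more. The part of these F1BX tumors in the differences was not tested.

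Markers of other cells also differed in the F1BX tumors, where 13.5% of all probe sets rose and 16.1% fell. The lists hold 1 probe set per named gene, and the F1BX share over named genes was not taken, here or above. In FVB tumors that share was higher (10.2% and 10.5%) than the share over all probe sets (7.96% and 8.04%). Of 8 T cell genes 5 rose, with a list median of 0.18, among them Cd8a, a co-receptor of cytotoxic T cells, by 0.51. Of 11 interferon response genes 6 rose, with a median of 0.62, among them Irf7 by 1.23 and Ifit3 by 0.79. Of 15 fibroblast and matrix genes 7 fell, with a median of -0.33, among them Postn, or periostin, by 0.79. In FVB tumors 0 of each of these lists was called. The mean over the interferon list ran from 7.52 to 10.42 in Npy-high F1BX tumors and from 6.49 to 11.15 in Npy-low F1BX tumors. The mean over the T cell list ran from 6.05 to 6.70 in Npy-high and from 5.79 to 6.74 in Npy-low F1BX tumors, and that over the fibroblast list from 7.04 to 10.59 in Npy-high and from 7.62 to 11.24 in Npy-low F1BX tumors. On wide-set arrays only, 5 T cell and 3 interferon genes rose and 4 fibroblast and matrix genes fell. The difference between backgrounds passed for none of these 18 genes (lowest adjusted p 0.475, for Ifit3), and the part of these cells in the other F1BX differences was not tested.

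**Figure D4:**
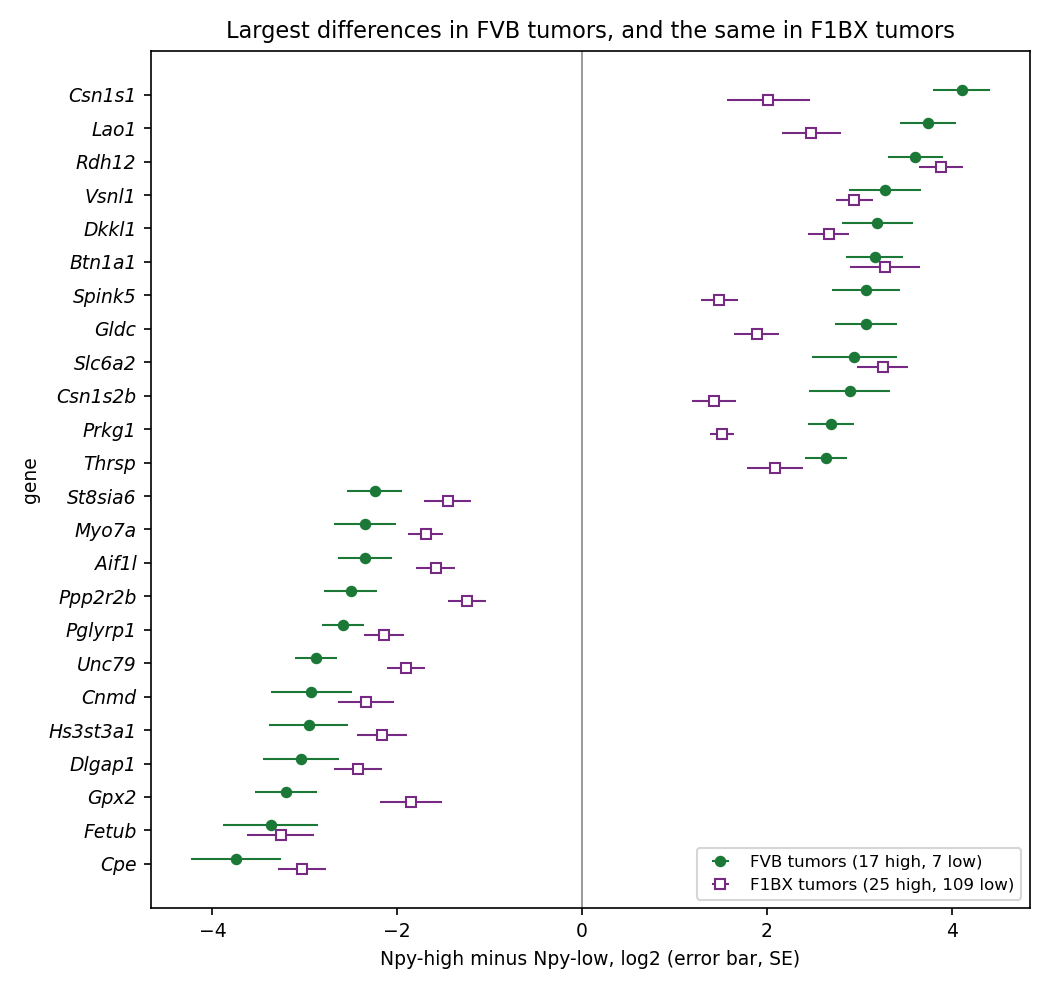
Npy-high minus Npy-low difference (log2, x axis) of the 24 genes with the largest differences in FVB tumors (y axis), with FVB tumors as filled circles and F1BX tumors as open squares. Error bars are SE, and all 24 have the same sign in both.

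The difference between the backgrounds was tested directly. Over all probe sets, 17 (0.0478%) had a Npy-high minus Npy-low difference that itself differed between FVB and F1BX tumors at an adjusted p under 0.05. None of the 24 genes was among them, and the lowest adjusted p of the 24 was 0.075, for Prkg1, which differed by 2.70 in FVB and by 1.51 in F1BX tumors. Within the 8 F1BX mice that held tumors of both kinds (9 Npy-high and 11 Npy-low tumors, mouse as a fixed term), 1213 probe sets (3.41%) were higher and 1355 (3.81%) were lower. Of the FVB probe sets that rose, 825 (29.1%) rose there, which is 68.01% of that list, and of those that fell, 756 (26.4%) fell, which is 55.79% of that list. All 24 genes kept their direction within these mice, and 8 of the 12 that rose and 10 of the 12 that fell passed, Rdh12 with 3.56 and Fetub with -3.80. Csn1s1 (1.95, adjusted p 0.129), Gldc (1.95, adjusted p 0.0508), Csn1s2b (0.95, adjusted p 0.434) and Thrsp (1.69, adjusted p 0.0615) did not. Nor did Ppp2r2b (-0.91, adjusted p 0.118) and St8sia6 (-1.53, adjusted p 0.151), of the genes that fell.

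Of the 10 protein-coding genes on each side of Npy on chromosome 6, 18 were measured. In FVB tumors 1 of the 18 rose and 2 fell, beside 10.2% and 10.5% of all named genes. Fam221a, the second gene before Npy, rose by 0.49 (adjusted p 0.00633), Malsu1 fell by 0.18 and Tra2a by 0.29, and the median of the 18 was -0.09. The nearest genes, Stk31 and Mpp6, had differences of -0.06 (adjusted p 0.608) and -0.20 (adjusted p 0.378). In F1BX tumors Fam221a also rose, by 0.45, and 4 genes fell, beside 13.5% and 16.1% of all probe sets. Within the 8 F1BX mice with tumors of both kinds, Fam221a differed by 0.11 (limma with mouse as a fixed term, adjusted p 0.675). In FVB mice it was higher in the Npy-high tumor of P10 and P16. In P21 it was 9.18 in the Npy-high and 9.45 in the Npy-low tumor.

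A set of 7 genes was taken from an earlier description of these arrays, where they were lower in F1 than in FVB tumors. Efhd1 and Duox1 were among them, beside Vsnl1, Gldc, Rdh12 and the milk genes Btn1a1 and Lao1. All 7 rose in Npy-high FVB tumors, with a median of 3.17, and all 7 rose in Npy-high F1BX tumors. The set was chosen on these samples and is not independent evidence of its direction. Efhd1, a mitochondrial calcium-binding protein gene, was at 8.13, 10.46 and 11.29 in Npy-high tumors, against 6.27, 7.38 and 9.21 in Npy-low tumors. Duox1, a hydrogen peroxide-forming oxidase gene, was at 11.25, 12.66 and 13.05 in Npy-high tumors, against 9.89, 12.01 and 12.43 in Npy-low tumors, with the smallest difference of the 7 in FVB (1.06).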

How the data were processed

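Total RNA of tumors and mammary glands was hybridised to Affymetrix mouse gene 1.0 ST arrays. Per the methods of the study, the authors normalised the arrays by robust multiarray average (RMA), and the deposited values are log2 RMA values for 35556 probe sets, ranging from 2.25 to 14.76. No probe level files were used here, and the number of arrays limits the precision.

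Probe sets were named from the platform annotation, which gave 1 symbol for 21789, several for 1621 and none for 12146; only the first kind were named, with 1 probe set per gene (the highest mean over all arrays). Tumors were grouped by the deposited Npy value, and the mouse was read from the tumor name; arrays named as repeats were left out. Npy-high and Npy-low tumors were compared with limma 3.58.1 (R 4.3.3) on all probe sets, with mouse as a random block (duplicateCorrelation, statmod 1.5.0; correlation 0.078 in FVB, 0.105 in F1BX tumors) and no filter. In F1BX tumors the array set was a term, since 34 of the 222 arrays have a narrower interquartile range than the other 188 (3 of the Npy-high and 15 of the Npy-low F1BX tumors, 0 of the FVB tumors). The difference between backgrounds was an interaction contrast. Npy itself was left out of every count. Calls used a Benjamini-Hochberg adjusted p under 0.05. The script was tested on simulated data. The labels do not say how the pieces of tumor were taken.

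Named genes were the 12 with the largest difference in each direction among called genes (predicted genes and olfactory or vomeronasal receptors left out), the genes of 30 lists (339 of 363 measured), Npy, Erbb2 and the genes beside Npy; a few probe sets named in the closing part were chosen after their values were seen. The members and the lists were chosen with earlier results of these data known. Same-mouse pairing comes from the tumor names, and P10, P16 and P21 are the only FVB mice with both kinds of tumor. Fits that left 1 pair of tumors from a mouse had no mouse block.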

Additional observations from a re-analysis of the deposited data

Results flagged for a closer look

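In 97 genes, the 7 Npy-low FVB tumors were searched for a tumor whose gap to the nearest other exceeded Dixon's 95% critical value. This happened in 7 genes, and chance flags about 1 in 20. Rdh12 was 8.77 in P04T1, against 5.85 to 6.89 in the other Npy-low tumors. Vsnl1 was 7.65 in P07T1, against 5.90 to 6.62. Csn1s2b was 7.65 in P23T1, the Npy-low tumor with the highest Npy, against 5.57 to 6.41. Unc79 was 9.72 in P10T1, against 8.46 to 8.97. Cnp was 10.42 in P04T1, against 8.99 to 9.52. Gata3 was low in P10T1, at 10.62, against 11.24 to 11.45. Erbb4 was 10.09 in P21T1, against 6.14 to 7.69. No tumor recurred in more than 2 of the 7 genes.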

How the results depend on the processing

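The count of 5690 probe sets in FVB tumors stayed between 4681 and 6232 when each of the 24 tumors was left out in turn. With the replicate block, in which mouse is a fixed term and only P10, P16 and P21 enter, 12 probe sets were called, from 6 tumors. Of the 24 genes with the largest differences, 4 (Rdh12, Gldc, Prkg1 and Unc79) kept the call under this pairing and all 24 kept their direction, and of the 72 other called list genes 0 kept it. The 24 were chosen with these 6 tumors in the fit. Without the 3 mice 2950 were called. At a fold of at least 2 and an FDR of at most 0.005, the threshold of the study's methods, 339 were called in FVB and 260 in F1BX tumors. With mouse as a fixed term in 8 F1BX mice 2568 were called, and on wide-set arrays only 3 probe sets differed between backgrounds. None of these 24 and 72 genes changed sign under the settings for FVB tumors. Within the 8 F1BX mice some of the 72 did, such as Map2 (-0.01, against 0.43 in FVB tumors) and Npy2r (0.06, against -0.30 in FVB tumors). The 24 genes kept the call under every other setting (no mouse block, 1 tumor per mouse, quantile normalization, other Npy cuts, Npy as a continuous term, 063T1 added, the interquartile range as a covariate, each tumor left out, without the 3 mice or the 7 tumors with high Adipoq); the filter on low signal kept 23 of them in the table, and all 23 were called. Of the 72 other list genes, 13 lost the call when 1 tumor was left out. The call was lost for Nrg2 without P21T1 (adjusted p 0.0594), for Fabp4 without P10T1 or P23T1 (up to 0.0537), for Hk2 without P04T1 or P10T1 (up to 0.0719), for Junb and Egr2 without P04T1, P10T1 or P16T1 (up to 0.0954 and 0.122), and for Tgfa without P04T1, P10T1 or P24T2 (up to 0.0954). It was lost for Vim without P04T1, P10T1, P16T1 or P24T2 (up to 0.116), for S100b without P07T1, P10T1, P21T1 or P24T2 (up to 0.0897), for Aurka without P07T1, P21T1, P21T4 or P23T1 (up to 0.0842), and for Pecam1 without P07T1, P21T1, P21T4, P23T1 or P24T2 (up to 0.103). For Spred2, Cenpe and Vegfa, 14, 16 and 18 of the 24 tumors each ended it (up to 0.113, 0.115 and 0.132). Without the 3 mice 29 of the 72 lost it, without the 7 tumors with high Adipoq 17, with 1 tumor per mouse 7, with the Npy cut at 9 it was 4, at 11 or more against under 7.5 it was 3, with 063T1 added 3, and with no mouse block, Npy as a continuous term or the interquartile range as a covariate 1 each. Quantile normalization ended 0 of the 72 calls and the filter on low signal 0 of the 69 it kept. The settings without the 3 mice, without those 7 tumors and with mouse fixed in F1BX were chosen after seeing the data.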

Other observations

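Of the 17 probe sets whose Npy-high minus Npy-low difference itself differed between FVB and F1BX tumors, 3 belonged to Cspp1, a gene of the cilium and spindle, which was higher in Npy-high FVB tumors (0.31, 0.39 and 0.35), with differences of -0.06, -0.11 and -0.07 in F1BX tumors. Frem2, an extracellular matrix gene, had the lowest adjusted p among them (0.00343), with a difference of -0.73 in FVB and 0.06 in F1BX tumors. Nfe2, a transcription factor of the blood lineage, had -0.77 in FVB and -0.14 in F1BX tumors. These genes were named after their values were seen.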
